A study of Mus musculus with 48 samples.

Results

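The lipin genes Lpin1, Lpin2 and Lpin3 were followed in liver samples of mice given dichloroacetic acid (DCA), a by-product of water disinfection that inhibits pyruvate dehydrogenase kinases. The members were the rows with these 3 symbols in the table of frozen liver (FROZ), which lists 11275 genes, and in the table of formalin-fixed paraffin-embedded liver (FFPE), which lists 6673 genes. All 3 lipins are listed in FROZ and 2 of them in FFPE, where Lpin3 is not listed. Lpin1 was picked because it was the 1 gene called in both tables at the lowest dose, so its difference from the vehicle is given as a description without a test. At that dose 12 genes were called in FROZ and 4 in FFPE, at a false discovery rate (FDR) under 0.05 and a fold change above 2. The other genes called at that dose were called in 1 table only. Some changed by more than 2-fold in both tables, on the log2 scale. Examples are Fkbp5, at -1.29 in FROZ and -1.81 in FFPE, Bhlhe40, at -1.49 and -1.42, and Arrdc3, at 1.29 and 3.10. Others did not, such as Sds, at -0.39 in FROZ and -1.18 in FFPE.

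Male B6C3F1 mice aged 4 weeks drank water with 0, 1.0, 2.0 or 3.5 g/L of DCA for 6 days, for estimated intakes of 198, 313 and 427 mg/kg-d in the 3 exposed groups. The group on 0 g/L is the vehicle. Each of 24 mice, 6 per dose, gave 1 FROZ library from mixed lobes and 1 FFPE library from sections of the left lateral and right medial lobes, both from tissue archived for more than 20 years. TempO-Seq was used, in which a pair of detector oligos is ligated on its target transcript, amplified and counted. The values are log2(CPM + 1), where CPM are the counts of a library scaled by the authors to a fixed total over the listed genes of its table. The reads recovered from the values came to 6.69 to 9.84 M per library in FROZ and 1.83 to 6.01 M in FFPE. Of 6 hepatocyte markers, 6 are listed in FROZ and 5 in FFPE, and none of 6 adipocyte markers is listed in either table.

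Lipins are phosphatidate phosphatases. They remove the phosphate from phosphatidate and leave diacylglycerol, from which the liver makes triacylglycerol, phosphatidylcholine and phosphatidylethanolamine. Lipin 1 is absent in the fatty liver dystrophy mouse, and in liver it also enters the nucleus, where it acts with PGC-1alpha and PPARalpha on genes of fatty acid oxidation. Its transcript is known to rise with fasting and glucocorticoids. Lipin 2 is the main lipin protein of the liver, and its loss in humans causes Majeed syndrome, an inflammatory disease of bone and blood. Lipin 3 is better known from the intestine.

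In GRCm38 (GENCODE vM21), Lpin1 is on chromosome 12 at 16535669 to 16610966 on the minus strand, Lpin2 on chromosome 17 at 71182560 to 71249817 on the plus strand, and Lpin3 on chromosome 2 at 160880670 to 160906002 on the plus strand. The 250 bases before the RefSeq start of Lpin1 (GRCm38.p6, chr12:16610967-16611216, minus strand) and before the most upstream of 3 RefSeq starts of Lpin2 (chr17:71183282-71183531, plus strand) are shown because these are the lipins whose transcript levels differed between doses. Each is written 5′ to 3′, and the capitals mark AGGTCA, the hexamer that nuclear receptors bind, in Lpin1, and GGGCGG, a GC-box, and CACGTG, an E-box, in Lpin2.
Lpin1: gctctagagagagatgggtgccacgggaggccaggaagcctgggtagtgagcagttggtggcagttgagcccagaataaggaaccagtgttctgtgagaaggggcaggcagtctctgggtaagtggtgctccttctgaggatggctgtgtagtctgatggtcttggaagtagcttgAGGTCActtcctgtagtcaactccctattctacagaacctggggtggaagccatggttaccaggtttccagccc
Lpin2: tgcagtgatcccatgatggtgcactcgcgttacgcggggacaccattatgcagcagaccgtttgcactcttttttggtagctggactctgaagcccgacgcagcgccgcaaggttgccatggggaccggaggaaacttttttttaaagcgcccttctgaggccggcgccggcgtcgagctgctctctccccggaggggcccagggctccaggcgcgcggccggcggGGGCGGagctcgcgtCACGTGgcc
AGGTCA begins 74 bases before the Lpin1 start. In Lpin2, GGGCGG begins 24 bases and CACGTG 9 bases before the start. Over 32851 RefSeq promoters of this length, 14% hold AGGTCA, 32.7% hold GGGCGG and 6.02% hold CACGTG on either strand. The palindromic glucocorticoid response element and TGACGTCA, the cAMP response element, were searched in the same way and are in neither window. They are in 0.00913% and 1.55% of all promoters. The Lpin1 window has 54.8% GC and the Lpin2 window 65.2%, beside a median of 52.4%. The Lpin2 window lies within the span of the GENCODE gene, downstream of the first exon of a longer transcript. The motifs were chosen with these sequences in view, and a match is only a description of the letters.

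Lpin1 was lower than in the vehicle in each of the DCA-exposed mice, in both preservations, and was about as low at the lowest dose as at the highest. In FROZ the vehicle values had a lowest of 8.27, a median of 8.68 and a highest of 9.58. At 198 mg/kg-d they were 5.45, 6.27 and 6.76, at 313 mg/kg-d 5.68, 5.85 and 6.32, and at 427 mg/kg-d 5.81, 6.05 and 6.86 (lowest, median and highest). All 6 mice at each dose lay below all 6 vehicle mice, and the gap between the vehicle and any exposed mouse was wider than the range within a dose. Mean CPM were 459 ± 160 in the vehicle and 78.2 ± 21.7, 59.5 ± 10.2 and 72.4 ± 21.7 in the exposed groups, in dose order (SD, n = 6). These are 17.0%, 13.0% and 15.8% of the vehicle mean. A FROZ library held between 336 and 6065 Lpin1 reads, so no value rests on a few reads. In the whole FROZ table, 0.106%, 2.31% and 3.50% of genes were called at 198, 313 and 427 mg/kg-d, and 0.479%, 2.39% and 3.27% had all exposed mice below all vehicle mice.

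In FFPE the Lpin1 values were 9.11, 9.38 and 10.27 in the vehicle (lowest, median and highest), 6.54, 7.12 and 8.31 at 198 mg/kg-d, 5.12, 6.74 and 6.96 at 313 mg/kg-d and 6.46, 6.97 and 7.55 at 427 mg/kg-d. The 6 mice at each dose were again below all vehicle mice. The gap, from 8.31 to 9.11, was here narrower than the range within any dose group. Mean CPM were 740 ± 251, 157 ± 80.7, 92.8 ± 34.3 and 134 ± 40.6 in dose order (SD, n = 6), which puts the 3 exposed groups at 21.3%, 12.5% and 18.1% of the vehicle. The FFPE background was 0.0599%, 0.809% and 1.81% of genes called at the 3 doses, and 0.285%, 0.614% and 1.54% of genes with all exposed mice below all vehicle mice. Because the rule used the 198 mg/kg-d calls of both tables and the vehicle mice are shared by the 3 doses, nothing is read from these counts.

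**Figure D1:**
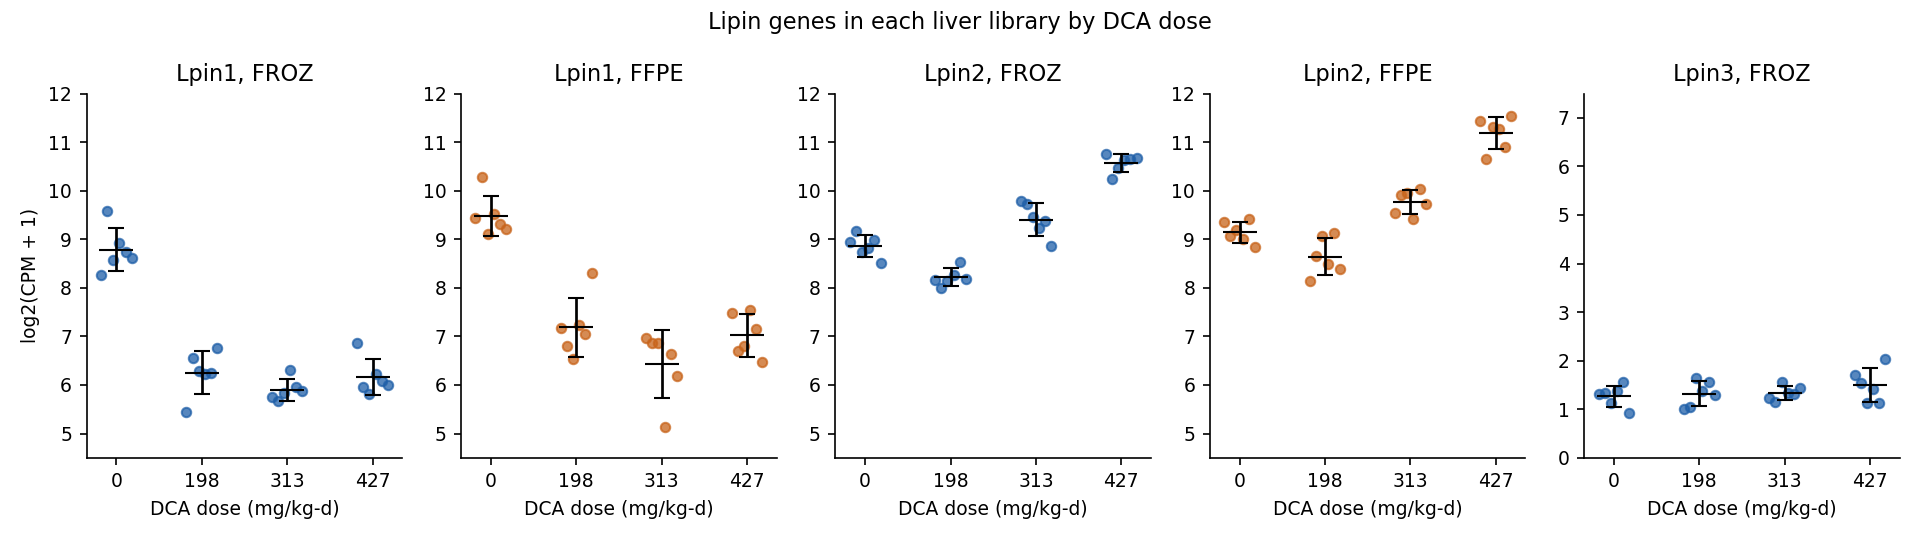
Values of the lipins in each library by DCA dose, as log2(CPM + 1), with 1 point per mouse, FROZ in blue and FFPE in orange. Horizontal bars are means and whiskers are SD (n = 6), the panel of Lpin3 has an axis of its own range, and Lpin1 is separated from the vehicle at every dose while Lpin2 dips at 198 mg/kg-d and is highest at 427 mg/kg-d.

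Among the exposed groups, the Lpin1 level was lowest at 313 mg/kg-d in both preservations. In FROZ the log2 fold changes against the vehicle were -2.53, -2.88 and -2.63 at 198, 313 and 427 mg/kg-d (SE 0.20 each), and in FFPE -2.29, -3.04 and -2.46 (SE 0.31 each). The groups at 198 and 313 mg/kg-d overlapped, with a difference of -0.35 in FROZ and -0.75 in FFPE. The step from 313 to 427 mg/kg-d compares no mouse of the lowest-dose contrast and was tested by limma across all genes. Its SE rests on the spread over all 24 libraries, which also entered the choice of Lpin1, so the test is not fully separate from that choice. In the main fit the step was 0.25 in FROZ (SE 0.20, 95% interval -0.15 to 0.65, FDR 0.538) and 0.59 in FFPE (SE 0.31, 95% interval -0.04 to 1.22, FDR 0.524). Neither passed, and the intervals leave room for a rise at 427 mg/kg-d of at most 0.65 in FROZ and 1.22 in FFPE on the log2 scale.

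Lpin2 did not follow Lpin1. It fell at the lowest dose and rose at both higher doses in FROZ, and ended 3.27-fold above the vehicle at 427 mg/kg-d. The FROZ values were 8.52, 8.88 and 9.17 in the vehicle (lowest, median and highest), 7.99, 8.17 and 8.54 at 198 mg/kg-d, 8.86, 9.42 and 9.79 at 313 mg/kg-d, and 10.24, 10.64 and 10.76 at 427 mg/kg-d. Of the 6 mice at 198 mg/kg-d 5 were below all vehicle mice, at 313 mg/kg-d 5 of 6 were above them, and at 427 mg/kg-d 6 of 6 were above them, as in 11.4% of all FROZ genes. Mean CPM were 468 ± 72.1, 298 ± 39.8, 692 ± 155 and 1531 ± 187 in dose order (SD, n = 6).

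The fall of Lpin2 at 198 mg/kg-d in FROZ was -0.65 on the log2 scale (SE 0.13, FDR 0.0112 by limma), which leaves it at 63.6% of the vehicle mean CPM and short of the 2-fold limit of a DEG. At that dose 1.56% of the FROZ genes passed the FDR, and 0.443% passed with a lower level. The rise was 0.54 at 313 mg/kg-d (SE 0.13, FDR 0.00288) and 1.71 at 427 mg/kg-d (SE 0.13, FDR 1.51e-10), and only the second was a DEG. The share of all FROZ genes that passed with a higher level was 20.5% at 313 mg/kg-d and 22.7% at 427 mg/kg-d, while 2.26% were higher DEGs at 427 mg/kg-d. The median change of all FROZ genes was 0.07, 0.11 and 0.10 at the 3 doses. With libraries scaled by their median ratio in place of CPM, Lpin2 changed by -0.73, 0.40 and 1.56 and passed the FDR at all 3 doses.

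In FFPE the Lpin2 values were 8.83, 9.12 and 9.42 in the vehicle (lowest, median and highest), 8.14, 8.57 and 9.14 at 198 mg/kg-d, 9.41, 9.82 and 10.04 at 313 mg/kg-d, and 10.66, 11.29 and 11.53 at 427 mg/kg-d. The order of the group means was that of FROZ, with 4 of 6 mice below all vehicle mice at 198 mg/kg-d, 5 of 6 above them at 313 mg/kg-d and 6 of 6 above them at 427 mg/kg-d, as in 2.94% of all FFPE genes. The difference at 198 mg/kg-d was -0.50 (SE 0.19, 95% interval -0.88 to -0.12, FDR 0.300), and at 313 mg/kg-d it was 0.63 (SE 0.19, 95% interval 0.25 to 1.01, FDR 0.111). Neither passed the test across all genes, where 0.0599% and 1.08% of FFPE genes passed. At 427 mg/kg-d Lpin2 rose by 2.05 (SE 0.19, FDR 2.34e-09), to 418% of the vehicle mean CPM, and 2.41% of FFPE genes passed. In the exact rank sum test of Lpin2 alone, two-sided with n = 6 and adjusted over 3 doses, the FFPE p-values were 0.0649, 0.00649 and 0.00649 in dose order. The limma p at 313 mg/kg-d was 0.00206 before adjustment over all genes, so the adjustment differs between these tests as well. The FFPE libraries at 198 mg/kg-d were the shallowest, with a median of 3.38 M reads against 5.28 M in the vehicle and a median of 986 genes at 0 against 284.5, and the part of depth in the difference was not tested.

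The steps between doses separated Lpin2 further. From 198 to 313 mg/kg-d it rose by 1.19 in FROZ (SE 0.13, FDR 9.94e-07) and 1.12 in FFPE (SE 0.19, FDR 0.000577). From 313 to 427 mg/kg-d it rose by 1.17 in FROZ (SE 0.13, FDR 7.53e-06) and 1.42 in FFPE (SE 0.19, FDR 2.78e-05). In both tables and both steps, 6 of 6 mice at the higher dose lay above all 6 at the lower dose. Such a separation was found for 3.16% of FROZ genes and 0.435% of FFPE genes in the first step, and for 1.25% and 0.794% in the second. Each of these 4 rises was above 2-fold, and the share of genes that were DEGs with a higher level was 1.02% in FROZ and 0.629% in FFPE for the first step, and 0.266% and 0.0749% for the second.

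Over the 4 doses, the Kruskal-Wallis statistic of Lpin2 was 20.7 in FROZ and 20.1 in FFPE, each with a permutation p of 1e-05, the smallest that 100000 permutations can give (n = 6 per dose). The Jonckheere statistic for an ordered trend was 178 in FROZ (two-sided permutation p = 0.00012) and 185 in FFPE (two-sided permutation p = 4e-05), beside 108 for no trend. The trend was not a steady rise, since in both tables the group at 198 mg/kg-d, and not the vehicle, had the lowest mean.

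**Figure D2:**
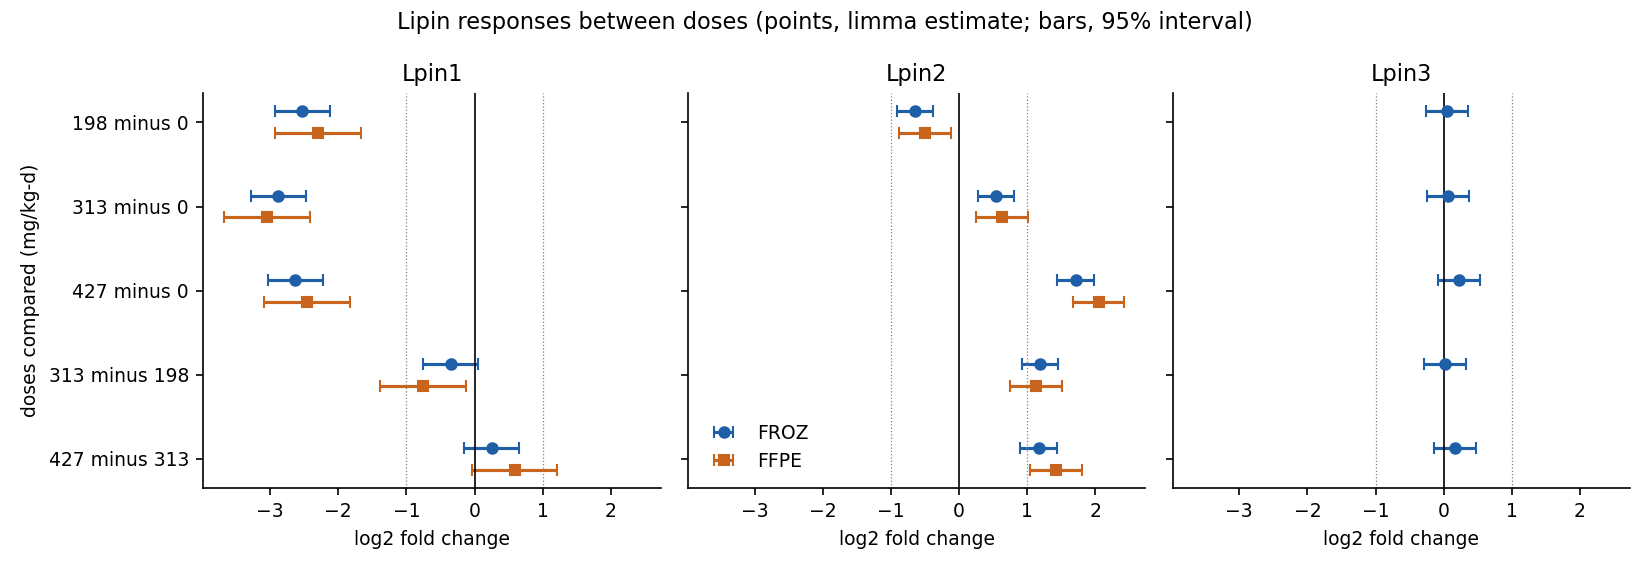
Log2 fold changes of the lipins between doses, with 95% intervals from limma on 24 libraries per table, FROZ as blue circles and FFPE as orange squares. Dotted lines mark 2-fold, and the difference of Lpin1 from the vehicle lies between -2.29 and -3.04 over the 3 doses and both tables while Lpin2 goes from -0.65 to 1.71 in FROZ.

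Lpin3 was scarce, and no change with dose passed. Its FROZ values ranged from 0.92 to 2.04 on the log2(CPM + 1) scale, which are 8 to 25 reads per library. Group means were 1.27 ± 0.22, 1.32 ± 0.26, 1.34 ± 0.14 and 1.50 ± 0.35 in dose order (SD, n = 6), and all groups overlapped. The log2 fold changes were 0.05, 0.07 and 0.23 at 198, 313 and 427 mg/kg-d, with 95% intervals of -0.26 to 0.36, -0.24 to 0.37 and -0.08 to 0.53, and none passed (FDR 0.915, 0.794 and 0.279 by limma). The log2(CPM + 1) scale understates the change of a gene this low, and a rise of up to 0.53 at 427 mg/kg-d lies within the interval. The Kruskal-Wallis statistic was 1.39 (permutation p = 0.729).

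Within a library the balance of the 2 abundant lipins moved at each step of dose. The difference Lpin2 minus Lpin1 in log2(CPM + 1) was 0.08 ± 0.37 in the vehicle and 1.96 ± 0.50, 3.50 ± 0.49 and 4.42 ± 0.29 at the rising doses in FROZ (SD, n = 6). In FFPE it was -0.34 ± 0.49, 1.46 ± 0.88, 3.33 ± 0.58 and 4.16 ± 0.53. In FROZ the groups did not overlap up to 313 mg/kg-d, and those at 313 and 427 mg/kg-d did. In FFPE the vehicle reached 0.10 and the group at 198 mg/kg-d began at 0.07, so these overlapped narrowly. The FFPE groups at 313 and 427 mg/kg-d overlapped more widely, as the first reached 4.29 and the second began at 3.72. The genes are read by different probes, of which the authors attenuated that of Lpin1, so the difference is no ratio of transcripts, and only its change with dose can be read. Since Lpin1 was chosen on its fall, this is a description.

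**Figure D3:**
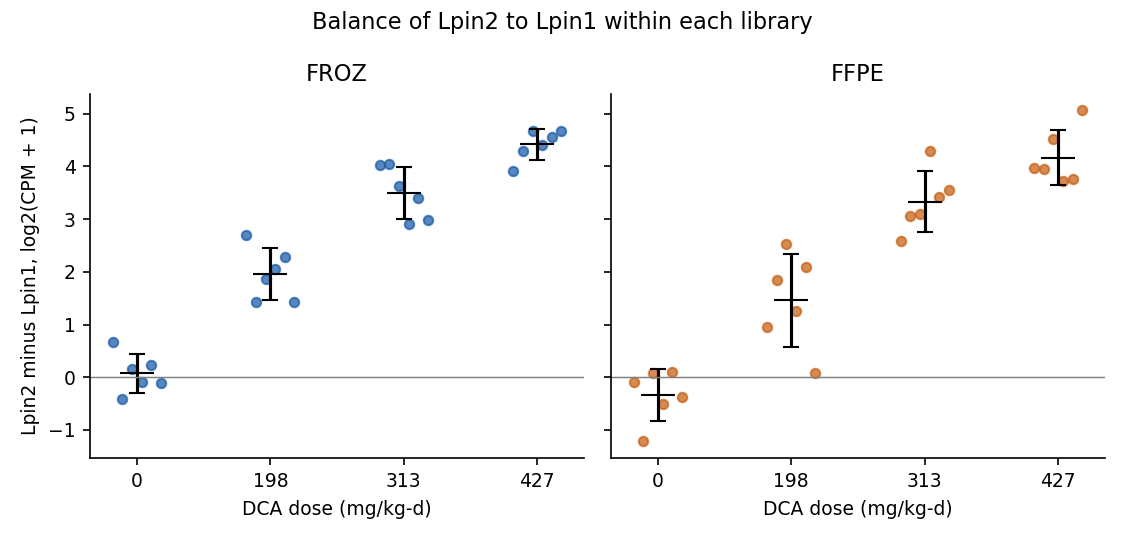
Difference of Lpin2 and Lpin1 in log2(CPM + 1) within each library, by DCA dose, with 1 point per mouse, means as horizontal bars and SD as whiskers (n = 6). Means go from 0.08 in the vehicle to 4.42 at 427 mg/kg-d in FROZ and from -0.34 to 4.16 in FFPE.

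Over the 24 libraries of a table, Pearson's r of Lpin1 and Lpin2 was -0.27 in FROZ and -0.31 in FFPE, and after the dose means were removed it was 0.14 and -0.02. These values are descriptions over libraries that share doses.

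Next, the response was compared between preservations of the same mice. The FFPE minus FROZ difference in the response of Lpin2 was 0.15 at 198 mg/kg-d (95% interval -0.35 to 0.65), 0.08 at 313 mg/kg-d (-0.42 to 0.58) and 0.33 at 427 mg/kg-d (-0.17 to 0.83), with the animal as the block. None passed (limma FDR 0.829, 0.954 and 1.00), and 0.0303%, 0.00% and 0.0303% of the 6591 genes in both tables did at the 3 doses (11.4%, 7.39% and 2.22% at an unadjusted p under 0.05). The response of Lpin1 differed by 0.24, -0.16 and 0.17 in the same order. For the step from 313 to 427 mg/kg-d the Lpin1 difference was 0.34 (95% interval -0.41 to 1.08, FDR 0.872). It was -0.01 without the mouse numbered 76, whose FFPE value of 5.12 was the lowest of its group while its FROZ value of 6.32 was the highest.

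The deviations of single mice from their dose mean were then compared between the 2 libraries of a mouse. For Lpin2, Pearson's r was 0.37 (permutation p = 0.0679, adjusted p = 0.136 over both lipins) and Spearman's rho 0.42 (permutation p = 0.0484, adjusted p = 0.0968) over 24 mice. Without the 2 mice farthest from the median in FROZ, r was 0.54. Within doses, r of Lpin2 was 0.52, 0.45, 0.10 and 0.72 in dose order (n = 6 each, as a description). For Lpin1, r was 0.25 and rho 0.25, given as a description. The spread of these libraries within doses entered the choice of Lpin1, so no p-value is read for it. The adjustment for Lpin2 still counts both lipins. Without the 2 mice farthest from the median, r of Lpin1 was 0.14. Within doses r of Lpin1 was 0.85, 0.31, -0.92 and 0.70, so its sign turned at 313 mg/kg-d. The relation of Lpin2 did not pass after adjustment. With median-ratio scaling it passed by Pearson's r (0.48, permutation p adjusted over both lipins 0.0343). It did not pass by Spearman's rho (0.47, adjusted permutation p = 0.0502). Without the 2 mice farthest from the median in FROZ, r with that scaling was 0.42.

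**Figure D4:**
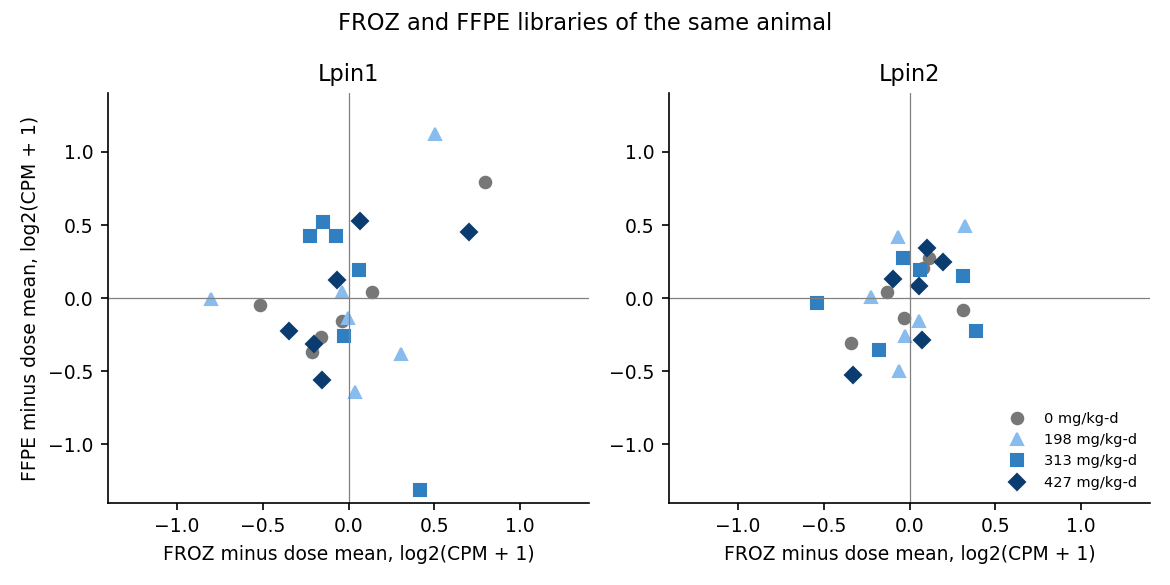
Deviation of each mouse from its dose mean in FROZ (horizontal) and FFPE (vertical), in log2(CPM + 1), for Lpin1 and Lpin2, with symbols for the 4 doses. Pearson's r over 24 mice is 0.25 for Lpin1 and 0.37 for Lpin2, and the lowest Lpin1 point is the mouse numbered 76.

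The lipins sit between the acyltransferases that make phosphatidate and the enzymes that use diacylglycerol. Of 18 genes of glycerolipid synthesis, 14 are listed in FROZ. None passed at 198 mg/kg-d, where 0.443% of all genes passed lower and 1.12% higher. At 313 mg/kg-d 8 rose and 2 fell, and at 427 mg/kg-d 9 rose and 1 fell, with median changes of 0.42 and 0.48 beside 0.11 and 0.10 over all genes. Among all FROZ genes, 6.15% fell at 313 mg/kg-d and 7.33% at 427 mg/kg-d, beside the shares that rose given above. With median-ratio scaling 7 rose and 2 fell at each of these doses. With that scaling 10.3% and 12% of all FROZ genes rose and 10.9% and 13.2% fell. With CPM, 3 of the listed genes were DEGs with a higher level at 427 mg/kg-d, beside 2.26% of all FROZ genes. All 3 belong to the first steps of the pathway. With median-ratio scaling 2 were DEGs, since Gpd1 was then at 0.85. Gpat3, an acyltransferase of glycerol 3-phosphate, went from 5.44 ± 0.37 to 7.23 ± 0.19 (log2 fold change 1.80, FDR 6.10e-10). Gpam, its mitochondrial counterpart, went from 5.75 ± 0.34 to 7.09 ± 0.33 (1.34, FDR 6.27e-07). Gpd1, which makes glycerol 3-phosphate from dihydroxyacetone phosphate, went from 9.78 ± 0.17 to 10.79 ± 0.20 (1.01, FDR 4.43e-06). Each had 6 of 6 mice above all vehicle mice, as had 11.4% of all FROZ genes. Downstream of the lipins, the diacylglycerol acyltransferase Dgat1 rose by 0.44 (FDR 0.0056) and Dgat2 differed by -0.30 (FDR 0.0922). Both calls turned with median-ratio scaling, where Dgat1 was at 0.29 (FDR 0.0655) and Dgat2 fell, at -0.45 (FDR 0.0105). With CPM, the gene that fell at 427 mg/kg-d was Agpat5, by 0.23.

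In FFPE 11 of the 18 genes are listed, and 2 rose at 427 mg/kg-d, where 2.41% of all FFPE genes passed, Gpd1 by 0.92 (FDR 0.00117) and Gpat4, an acyltransferase of the endoplasmic reticulum, by 0.84 (FDR 0.000419). None passed in FFPE at 198 or 313 mg/kg-d. The sum of the 5 hepatocyte markers in FFPE lay between 25398 and 30513 CPM at 427 mg/kg-d and between 36846 and 49408 CPM in the vehicle. The abundant Apoa1 (-0.79, FDR 0.00779) and Alb (-0.61, FDR 0.257) carry this sum, while Ttr was at 0.61 (FDR 0.787) and Hnf4a at 0.26 (FDR 0.971), and the part of these markers in the changes of the lipins was not tested. In bulk samples, fewer cells of a type and less RNA per cell cannot be told apart.

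**Figure D5:**
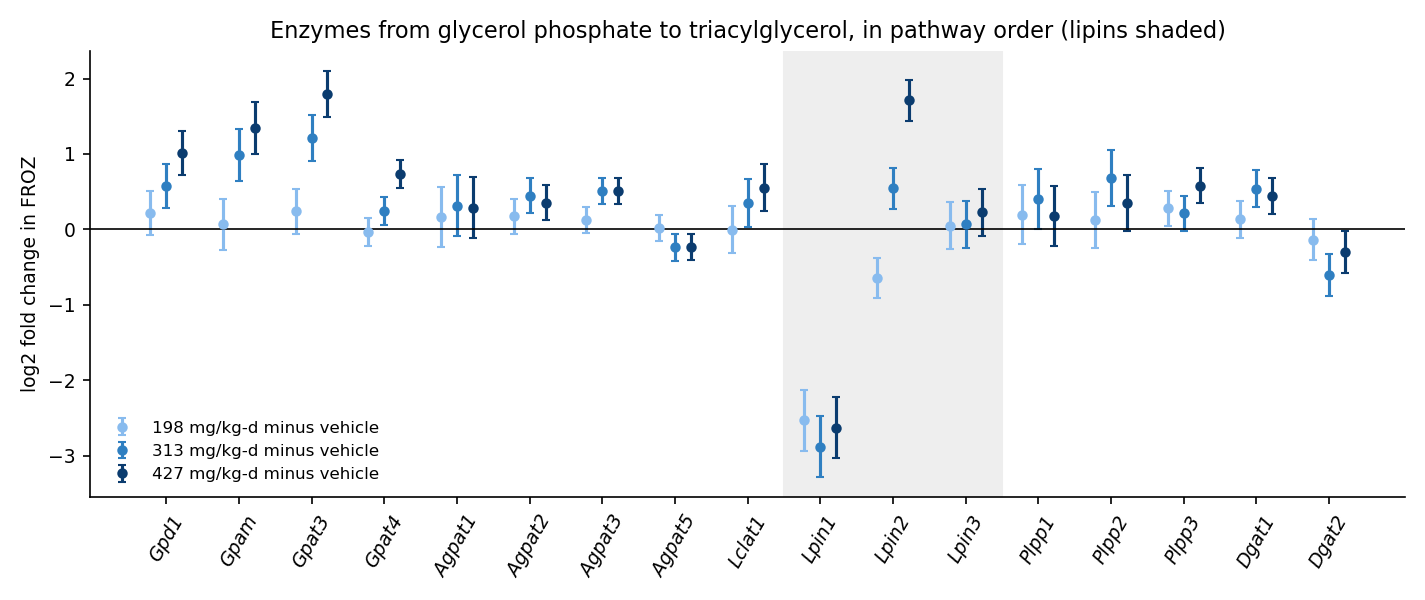
Log2 fold changes in FROZ against the vehicle at 198, 313 and 427 mg/kg-d (light to dark), with 95% intervals from limma, for the listed genes from Gpd1 to Dgat2 in the order of the pathway, with the lipins shaded. Lpin1, at -2.53 to -2.88, is the lowest gene shown, and Lpin2 at 1.71 is next to Gpat3 at 1.80 at the highest dose.

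Some enzymes of phospholipid synthesis use the product or the substrate of the lipins, and others of the list act at other steps. Of 14 listed genes of phospholipid synthesis in FROZ, none passed at 198 mg/kg-d, 6 rose and 2 fell at 313 mg/kg-d, where 20.5% of all FROZ genes rose and 6.15% fell, and 7 rose at 427 mg/kg-d, where 22.7% of all genes rose. With median-ratio scaling 3 rose and 3 fell at 313 mg/kg-d and 6 rose at 427 mg/kg-d, where 10.3% and 12% of all FROZ genes rose with that scaling and 10.9% and 13.2% fell. None was a DEG at any dose. The largest change at 427 mg/kg-d was that of Pcyt1a, which makes CDP-choline, at 0.85 (FDR 2.99e-05). Of 3 listed diacylglycerol kinases, which run the lipin step in reverse, 2 rose at 313 mg/kg-d and 1 at 427 mg/kg-d, beside 20.5% and 22.7% of all FROZ genes, and with median-ratio scaling none passed. In FFPE none of the 11 listed phospholipid genes or the 2 listed kinases passed against the vehicle.

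Genes known to act on the lipins were listed in full in FROZ, 24 of 24. None passed at 198 mg/kg-d, 8 rose and 1 fell at 313 mg/kg-d, and 9 rose at 427 mg/kg-d, with a median change of 0.15 beside 0.10 over all genes. Among all FROZ genes 20.5% rose and 6.15% fell at 313 mg/kg-d, and 22.7% rose at 427 mg/kg-d. With median-ratio scaling 5 of the 24 rose and 2 fell at 427 mg/kg-d, where 12% of all genes rose and 13.2% fell. The phosphatase that activates lipins, Ctdnep1, and its partner Cnep1r1 differed by 0.14 and -0.01 at 427 mg/kg-d (FDR 0.183 and 0.979). Srebf1, a regulator of lipid synthesis, was the DEG of this group, from 1.82 ± 0.76 to 3.56 ± 0.37 (1.73, FDR 1.89e-05). Ppargc1a, which codes for PGC-1alpha, fell at 313 mg/kg-d by 0.68 (FDR 0.0268) and did not pass at 198 mg/kg-d (-0.71, FDR 0.102) or 427 mg/kg-d (-0.28, FDR 0.389). In FFPE none of the 16 listed genes passed against the vehicle.

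Fasting and glucocorticoid genes, the setting in which Lpin1 is known to rise, did not move as one. Of 15 listed in FROZ, 1 fell at 198 mg/kg-d, 6 fell at 313 mg/kg-d, and 7 fell and 2 rose at 427 mg/kg-d, with the same counts under median-ratio scaling. Among all FROZ genes 0.443%, 6.15% and 7.33% fell at the 3 doses and 22.7% rose at 427 mg/kg-d. With median-ratio scaling 0.825%, 10.9% and 13.2% of all FROZ genes fell and 12% rose at 427 mg/kg-d. The gene that fell at 198 mg/kg-d was Fkbp5, a glucocorticoid-induced chaperone of the receptor, from 7.76 ± 0.19 to 6.47 ± 0.40 (-1.29, FDR 2.27e-05). At 427 mg/kg-d Fkbp5 was at -0.82, Zbtb16 at -1.69, and Mt2, a metallothionein, at -2.65 (FDR 0.000132, 2.33e-06 and 0.0159). Pdk4, a pyruvate dehydrogenase kinase, rose by 2.98 and Igfbp1, a fasting-induced binding protein, by 2.34 (FDR 6.71e-06 and 0.000279). In FFPE 1 of 11 listed genes fell at 198 mg/kg-d, the serine dehydratase Sds, by 1.18, and Tsc22d3 alone fell at 313 mg/kg-d, by 1.31. Of all FFPE genes 0.0599% and 1.08% passed at these doses. None of the 11 passed at 427 mg/kg-d.

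Targets of PPARalpha and PGC-1alpha in fatty acid oxidation rose at the higher doses. None of 18 passed at 198 mg/kg-d in FROZ, while 15 rose at 313 mg/kg-d and 17 at 427 mg/kg-d, with median changes of 1.03 and 1.35, beside 20.5% and 22.7% of all FROZ genes that rose. At 427 mg/kg-d 14 were DEGs, led by Cyp4a14 at 8.71, Cyp4a10 at 7.09, Acot1 at 5.41 and Ehhadh at 4.75, which act on fatty acids in microsomes, the cytosol and peroxisomes. With median-ratio scaling 1 of the 18 fell at 198 mg/kg-d, Angptl4, at -0.83 (FDR 0.0477), where 0.825% of all FROZ genes fell. In FFPE 6 of 15 rose at 313 mg/kg-d and 6 at 427 mg/kg-d, where 1.08% and 2.41% of all FFPE genes passed, and none passed at 198 mg/kg-d. Of 16 SREBP targets, 7 rose at 313 mg/kg-d, and 8 rose and 2 fell at 427 mg/kg-d in FROZ, against the same shares of all genes, and none passed at 198 mg/kg-d. With median-ratio scaling 5 rose at 313 mg/kg-d, and 7 rose and 3 fell at 427 mg/kg-d. Among all FROZ genes 10.3% rose at 313 mg/kg-d with that scaling, and 12% rose and 13.2% fell at 427 mg/kg-d. Scd1 (3.28), Elovl6 (2.23), Me1 (2.08) and Fasn (1.46), which make or modify fatty acids, had the largest changes. The 2 that fell, Sqle and Idi1, belong to cholesterol synthesis. In FFPE 4 of 14 SREBP targets rose at 427 mg/kg-d, where 2.41% of all genes passed. Lpin2 rose at the higher doses in FROZ, as did most of the oxidation genes. With CPM, the fall of Lpin2 at 198 mg/kg-d stood beside no passing gene of either list, and with median-ratio scaling beside Angptl4.

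The genes most like each lipin were sought over the 24 FROZ libraries among 5871 other genes that averaged 10 CPM or more. The libraries share their doses, so the values of r describe mostly the dose pattern. The highest r with Lpin1 were those of Man2b1 (0.89), Slc1a2 (0.86), Dpyd (0.85), Vps13c (0.85) and Fkbp5 (0.85), with 0.44, 0.42, 0.27, 0.13 and 0.44 in FFPE. After the dose means were removed, r in FROZ was 0.05, 0.39, 0.50, 0.31 and 0.51 in the order named. Their FROZ changes at 198 mg/kg-d were smaller than that of Lpin1, from -0.36 for Vps13c to -1.29 for Fkbp5. The lowest r were those of Mrps18b (-0.89), Apoc2 (-0.89), H3f3b (-0.87), Rrp36 (-0.87) and Ssu72 (-0.86). Without the dose means these were -0.49, -0.02, -0.75, -0.54 and -0.37. In FFPE Apoc2, an activator of lipoprotein lipase, was at -0.78 and H3f3b at -0.53, while Mrps18b, Rrp36 and Ssu72 were at -0.02, 0.03 and 0.12.

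The genes most like Lpin2 were Acot3 (0.94), Angptl4 (0.93), Slc35g1 (0.93), Ddhd2 (0.92) and Acot2 (0.91). Acot3 and Acot2 are acyl-CoA thioesterases of peroxisomes and mitochondria, Angptl4 inhibits lipoprotein lipase, and Ddhd2 is a lipid hydrolase. Acot3 was at 0.00, 4.25 and 8.02 at the 3 doses in FROZ, and Angptl4 was at -0.74 (FDR 0.0634), 0.13 and 1.26. In FFPE r was 0.77 for Acot3, 0.63 for Angptl4, 0.41 for Slc35g1 and 0.75 for Ddhd2, and Acot2 is not listed. After the dose means were removed, r in FROZ was 0.62, 0.70, 0.62, 0.68 and 0.82 in the order named. The lowest r were those of Snx29 (-0.91), Slc17a3 (-0.89), Slc22a28 (-0.88), Pkdcc (-0.88) and Slc22a30 (-0.88), of which Slc17a3, Slc22a28 and Slc22a30 are solute carriers. Without the dose means these were -0.28, -0.50, -0.23, -0.38 and -0.28 in the order of r. In FFPE Snx29 was at -0.65, Slc17a3 at -0.03, Pkdcc at 0.00 and Slc22a30 at -0.38.

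Markers of other cells were followed beside Lpin1. Of 5 striated muscle markers only Acta1 is listed, and in FROZ it ranged from 5.65 to 1780 CPM in the vehicle and from 2.39 to 7.60 CPM over the exposed mice. The vehicle mouse with 1780 CPM, numbered 5, had a Lpin1 value of 8.57, within the range of the others. In FROZ 2 of 4 listed Kupffer cell markers, 1 of 5 stellate cell markers and 1 of 5 sinusoidal endothelial markers fell at 427 mg/kg-d, none of 3 cholangiocyte markers passed, and 1 of 6 hepatocyte markers rose, beside 22.7% of all FROZ genes that rose and 7.33% that fell. With median-ratio scaling 2 Kupffer cell, 2 stellate cell, 3 endothelial, 1 cholangiocyte and 2 hepatocyte markers fell and none rose, and 12% of all FROZ genes rose and 13.2% fell. The sum of the 5 endothelial markers lay between 92.3 and 112 CPM at 427 mg/kg-d and between 118 and 138 CPM in the vehicle, while at 198 mg/kg-d it overlapped with the vehicle, at 116 to 149 CPM. The part of these markers in the changes of the lipins was not tested.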

How the data were processed

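TempO-Seq was measured in 48 liver libraries of 24 mice. The deposited values are log2(CPM + 1). Per the labels and methods, the authors trimmed the reads, aligned them to mm10 with STAR (2.6 in the submitters' processing notes) in Partek Flow, took gene counts on RefSeq transcripts by expectation maximization, dropped genes of low geometric mean, scaled each table to CPM, and added an offset of 1 CPM. Probes of abundant transcripts, Lpin1 included, were attenuated alike in all libraries.

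Reads per library were recovered from the spacing of low values. Of these, 95.9 to 97.2% in FROZ and 72.9 to 95.9% in FFPE were whole within 0.05 reads. Reads carry no molecular identifiers, so read counts cover counting error only. Libraries were grouped by dose as labelled. The labels give 6 animals per dose. FROZ and FFPE libraries of a mouse were paired by the animal number in the labels, and over 4815 genes the median r of their deviations was 0.128 within a mouse and -0.0232 between mice of a dose.

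Doses were compared by limma (3.58.1, R 4.3.3, variance prior with trend) on the 24 libraries of a table, with Benjamini-Hochberg adjustment over all genes. A gene passed at an FDR under 0.05, and a DEG also had a fold change above 2. The study used Partek's gene-specific models. Preservations were compared by limma on each mouse's FFPE minus FROZ difference. Single genes were tested by exact rank sum tests and by 100000 permutations (scipy 1.17.1). The fits were tested on simulated data. Fold changes are on the log2(CPM + 1) scale. Alternatives were offsets of 0.1 and 0.0001 CPM, median-ratio scaling, a minimum mean of 10 CPM, no trend in the prior, quality weights, fits of 2 groups alone, rescaling over shared genes, no block, and leaving out each mouse.

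The members, lists and motifs were chosen with earlier results of these data known. Named genes are the lipins, up to 4 DEGs of each list with the largest change, and the 5 genes of highest and of lowest r with Lpin1 and Lpin2. Other list genes were named after their values were seen. Positions are from GENCODE vM21 and promoters from RefSeq (GRCm38.p6), where all 3 lipins matched by symbol.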

Additional observations from a re-analysis of the deposited data

Results flagged for a closer look

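Of 20 groups of 6 lipin values, 1 held a value far from the others by Dixon's criterion, which chance gives in about 1 of 20 groups. Lpin1 in the FFPE library of the vehicle mouse numbered 4 was 10.2723, beside 9.11 to 9.52 in the other vehicle mice. Its FROZ value of 9.58 was also the highest of the vehicle. The FROZ deviations at 198 mg/kg-d (mouse 49, ratio 0.586) and 427 mg/kg-d (mouse 97, ratio 0.606) came near the criterion without passing it.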

How the results depend on the processing

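The calls of Lpin2 against the vehicle and between doses in both tables kept their direction and their side of the threshold under every alternative run except 1: Lpin2 in FFPE at 313 mg/kg-d did not pass in limma with adjustment over all genes but passed in the exact rank sum test with adjustment over 3 doses (median difference 0.71, adjusted p = 0.00649). The limma p before adjustment was 0.00206, and over all its alternatives its adjusted p ran from 0.00649 to 0.331. Leaving out each mouse in turn, Lpin2 ranged from -0.71 to -0.58, 0.47 to 0.65 and 1.64 to 1.78 in FROZ, in dose order, and from -0.60 to -0.40, 0.56 to 0.70 and 1.98 to 2.15 in FFPE.

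Lpin3 had no stable sign at the lower doses. At 427 mg/kg-d it was above the vehicle under every alternative, by 0.12 to 0.35. With median-ratio scaling it changed by -0.0023 and -0.018 at the lower doses against the vehicle and by -0.016 between them. Leaving out single mice, these ranged from -0.023 to 0.11, -0.0055 to 0.12 and -0.043 to 0.081. It passed under no alternative.

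In the comparison of preservations, the fit without the animal as replicate block gave Lpin2 differences of 0.15, 0.08 and 0.33 at the 3 doses and changed no call. Leaving out single mice, the FFPE minus FROZ difference ranged from -0.30 to 0.18 for Lpin1 at 313 mg/kg-d (positive without mouse 76), from -0.0083 to 0.47 for Lpin1 from 313 to 427 mg/kg-d (negative without mouse 76), from -0.020 to 0.20 for Lpin2 at 313 mg/kg-d (negative without mouse 78), and from -0.17 to 0.056 for Lpin2 from 198 to 313 mg/kg-d (positive without mouse 51 or 73). The pairing of Lpin2 deviations passed with median-ratio scaling by Pearson's r (0.48, permutation p adjusted over both lipins 0.0343) but not by Spearman's rho (0.47, adjusted permutation p = 0.0502). The cause of these changes was not tested. Lpin3 had at most 25 reads per library, and Lpin1 and Lpin2 at least 134 reads in any library.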
